A study of Danio rerio with 4 samples.

Results

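Morphants, zebrafish embryos that received a Bad morpholino at the 1-cell stage (MO-Bad in the labels), were compared with wild-type embryos (WT) at 24 hours post fertilization (hpf), on 2 of the 4 arrays of the series. The 2 arrays were chosen by their labelled age, and the other 2 arrays held the same comparison at 12 hpf. Each array compared RNA of 200 morphants, labelled with Cy5, with RNA of 200 WT embryos, labelled with Cy3, and the 2 arrays of an age are biological replicates per the labels. The injected volume was 2 to 3 nl, and the labels name no dose, no control morpholino, no injected control and no dye swap. Effects of the knockdown, of the injection and of the dye therefore share each ratio and cannot be told apart within an age. The p-values measure the spread between pools of embryos, on 2 arrays per age. The RNA came from whole embryos, so fewer cells of a type and less RNA per cell cannot be told apart either.

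Bad is a BH3-only protein of the Bcl-2 group, whose members decide at the mitochondrial outer membrane whether a cell enters apoptosis. In mammalian cells Bad binds and neutralizes Bcl-2 and Bcl-xL, and survival kinases of the Akt and Pim families phosphorylate it so that it stays inactive in the cytosol. A morpholino is an antisense oligomer that blocks translation or splicing of its target mRNA, and the labels do not say which of these applied. At the onset of the pharyngula stage segmentation of the zebrafish trunk is ending, the heart starts to beat, primitive erythrocytes enter circulation, the lens begins to make crystallins and the first pigment cells appear.

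All 4 arrays lie on 1 slide and were read in 1 scan. Median spot signals at 24 hpf were 131 and 136 in the morphant channel over local backgrounds of 49 and 49, against 76 and 73 in the WT channel over 32 and 30. Between 60.01% and 64.86% of the probes were well above background in a channel. Log2 ratios below are morphant over WT after background correction and loess within each array, with SD over n = 2 arrays, and levels are log2 intensities of 1 channel. Of 43603 probes 27142 were tested, those whose signal stood well above background on both arrays in 1 or both channels, and 14107 of these carried the symbol of 1 of 9956 genes. A gene has the value of its brightest probe. Of 21 markers of 10 tissues 17 were well above background in both channels on both arrays. The endothelial markers kdrl and cdh5 were in neither channel, and no probe carried the symbol ctslb (hatching gland) or col2a1a (notochord).

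The targeted gene was taken to be badb, the single Bad paralogue with a probe. Its level was 9.66 and 9.87 in morphants, against 10.08 and 10.07 in WT, so that the log2 ratios were −0.42 and −0.20. The mean of −0.31 ± 0.15 passed the test (limma adjusted p = 0.0161), though not without 24 hpf replicate 1 (−0.20, adjusted p = 0.233). Both morphant levels lay below both WT levels, and the ratio did not pass the test of a difference from the −0.25 at 12 hpf (adjusted p = 0.765). Because this morpholino's mode of action, on translation or on splicing, is unknown, the mRNA level is a limited check of the knockdown.

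Of the 27142 probes 5997 (22.1%) passed the limma test at 24 hpf at an adjusted p of 0.05, 2897 of them higher in morphants (10.7%) and 3100 lower (11.4%), with 9835 at an unadjusted p under 0.05. By gene 2692 of 9956 passed (27%), 1247 higher (12.5%) and 1445 lower (14.5%). Most differences were small, and the median size of the log2 ratio was 0.31 over the probes that passed. Falls were more often large than rises, with 55 probes lower and 12 higher by at least 2-fold, and 291 lower and 200 higher by at least 1.5-fold. Over all tested probes 20146 had the same sign on both arrays, and the ratios of the 2 arrays correlated across probes at r = 0.71 (rho = 0.69), where probes are not independent replicates and share the array's dye effects. Of 487 genes with at least 2 probes past the test, 468 had them in 1 direction.

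How many genes passed depended on the background correction and on the model of the spread. Ratios from the scanner software's processed signals gave 185 probes (58 higher, 127 lower) and plain background subtraction 0 (7271 at an unadjusted p under 0.05), both with 1 prior variance for all probes. With a prior variance that follows probe brightness, chosen after seeing the data, these signals gave 4293 and 3602 probes, and 1756 and 1769 of the 2692 genes passed in the same direction. Without loess, on ratios centred on each array's median, 1 probe passed, with 4611 at an unadjusted p under 0.05. The arrays had unlike brightness curves before loess, where the median log2 ratio of 10 equal bins of probes by brightness ran between 1.02 and 1.33 on replicate 1 and between 0.38 and 1.45 on replicate 2. Without 24 hpf replicate 1 the fit called 1064 genes, and without 24 hpf replicate 2 it called 1197.

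**Figure D1:**
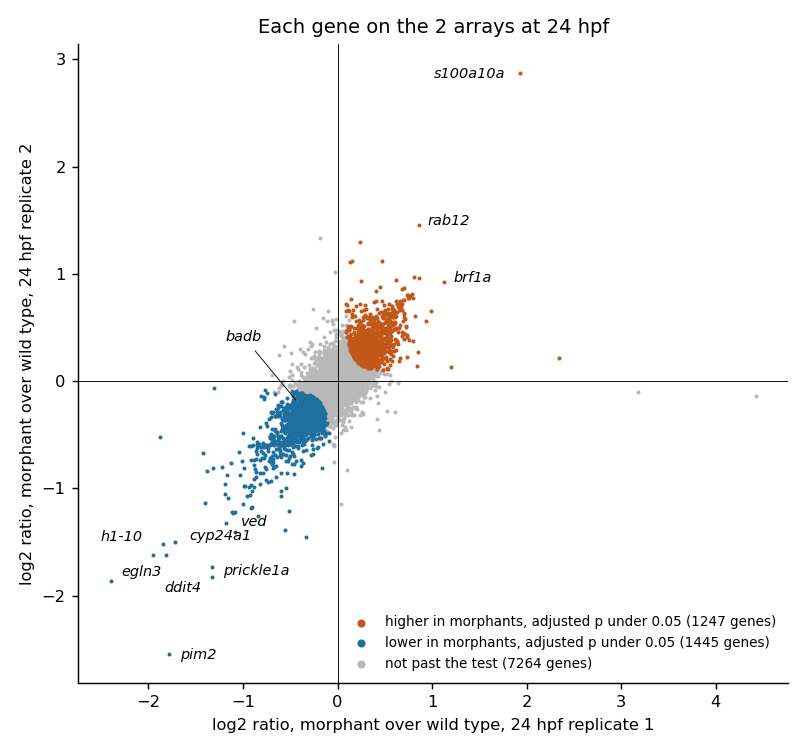
Log2 ratio (morphant over WT) of each of 9956 genes on 24 hpf replicate 1 (x axis) and replicate 2 (y axis), with genes higher in morphants in orange, lower in blue and not past the test in grey. The points lie along the diagonal, with pim2, egln3 and h1-10 lowest and s100a10a highest among genes that moved on both arrays, and 2 grey points at the right were high on replicate 1 alone.

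The largest falls in morphants joined a survival kinase, an oxygen sensor, a linker histone, keratins and stress-response genes. The gene pim2 encodes a kinase that promotes cell survival and that phosphorylates Bad in mammalian cells. Its level was 11.12 and 11.18 in morphants, against 12.90 and 13.72 in WT, a log2 ratio of −2.16 ± 0.54 (limma adjusted p = 5.50e-05). The ratio at 12 hpf was 0.08, and the difference between the ages passed as well (adjusted p = 7.35e-04). The other measured Pim kinase genes, pim1 at −0.06 and pim3 at 0.15, did not pass.

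The gene egln3 encodes a prolyl hydroxylase that marks the hypoxia-inducible factor for degradation and is itself induced by that factor. Its level was 8.47 and 8.88 in morphants, against 10.87 and 10.75 in WT. Its log2 ratio of −2.13 ± 0.38 (adjusted p = 1.75e-05) had a counterpart of −1.98 at 12 hpf, and the difference of −0.15 between the ages did not pass. The linker histone gene h1-10 was at 10.49 and 10.82 in morphants, against 12.44 and 12.44 in WT (log2 ratio −1.79 ± 0.23, adjusted p = 1.74e-05). Its other probe gave −1.90 and −1.67. In each of these genes all morphant levels lay below all WT levels. The genes were chosen for large falls on both arrays, so separation of the channels within an array follows from that choice.

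Of the keratin genes, which form the intermediate filaments of the epidermis, krt97 was at 13.14 and 13.27 in morphants, against 14.96 and 14.89 in WT, and krt99 at 12.74 and 12.99 in morphants, against 14.58 and 14.51 in WT. Their ratios at 12 hpf were −0.13 and −0.06, neither past the test. The vitamin D-degrading cyp24a1 had log2 ratios of −1.71 and −1.50 at 24 hpf and of 0.47 and 0.39 at 12 hpf, where it had passed in the other direction (adjusted p = 0.00367). A second, dimmer cyp24a1 probe gave −0.71 and −0.88 at 24 hpf. The planar cell polarity gene prickle1a had −1.33 and −1.74 on its brightest probe and −0.48 and −0.28 on the other.

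The ventral homeobox gene ved, a repressor of dorsal genes, had log2 ratios of −1.18 and −1.32 at 24 hpf and 0.60 and 0.57 at 12 hpf. Its other probe gave −1.23 and −1.38 at 24 hpf. The stress-response genes ddit4, whose product restrains mTORC1, and ppp1r15a, whose product directs the phosphatase that reverses eIF2α phosphorylation, were at −1.58 ± 0.35 and −1.27 ± 0.18. The remaining falls were amdhd2 of the hexosamine pathway (−1.17 ± 0.07), ccdc137 (−1.17 ± 0.09), the poly(A) polymerase family gene tent5ba (−1.12 ± 0.05), the pyruvate dehydrogenase subunit gene pdha1b (−1.25 ± 0.22) and the erythroid repressor gene gfi1aa (−1.15 ± 0.10). The limma adjusted p of the 15 falls lay between 1.07e-05 and 5.50e-05.

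The rises were smaller, apart from that of s100a10a, which encodes a partner of annexin A2. Its level was 10.34 and 11.80 in morphants, against 8.41 and 8.93 in WT, for log2 ratios of 1.93 and 2.87 (SD 0.67, adjusted p = 7.52e-05). At 12 hpf its ratio was 0.11. The RNA polymerase III factor gene brf1a had log2 ratios of 1.13 and 0.93, the small GTPase gene rab12 of 0.86 and 1.46 and the U6 RNA-processing gene usb1 of 0.80 and 0.97. Replicate 2 was the higher array for s100a10a, rab12 and usb1, and replicate 1 for brf1a.

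Further rises were those of atf4b, a transcription factor of the integrated stress response, at 0.78 ± 0.02, of the lens genes lim2.4 at 0.79 ± 0.01 and cryba1b at 0.79 ± 0.11, and of the nuclear pore gene nup50 at 0.77 ± 0.05. The ratios of cnpy2 (0.91 ± 0.08), the microRNA-processing gene dgcr8 (0.80 ± 0.02) and the G protein regulator gene rgs5b (0.77 ± 0.01) had been at 1.38, 0.88 and 0.82 at 12 hpf. The 4 probes of dgcr8 were unequal, and 1 of them did not pass (0.00 and 0.36). The limma adjusted p of the 15 rises lay between 7.52e-05 and 3.98e-04. With processed signals and a prior variance that follows brightness all 15 rises and all 15 falls passed, and with 1 prior variance 5 of the rises and 13 of the falls.

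The last 4 of the 15 rises are uncertain as results about single genes. The mitochondrial ribosomal gene mrpl20, the phosphodiesterase gene pde8a, the prenyltransferase subunit gene pggt1b and the retriever subunit gene vps26c had mean log2 ratios of 0.76, 0.77, 0.73 and 0.72. Among the 685 tested probes within 1.5 of the mrpl20 probe's brightness (log2), 27 probes, 9 of them with a symbol, had its ratio to within 0.15 on each of the 4 arrays. They lay between 0.61 and 0.75 and between 0.63 and 0.81 on the 24 hpf arrays, and between 0.81 and 0.97 and between 0.64 and 0.79 on the 12 hpf arrays. A second probe of pde8a, outside this set, gave 0.31 and 0.32. Whether these probes bind 1 shared RNA was not tested.

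**Figure D2:**
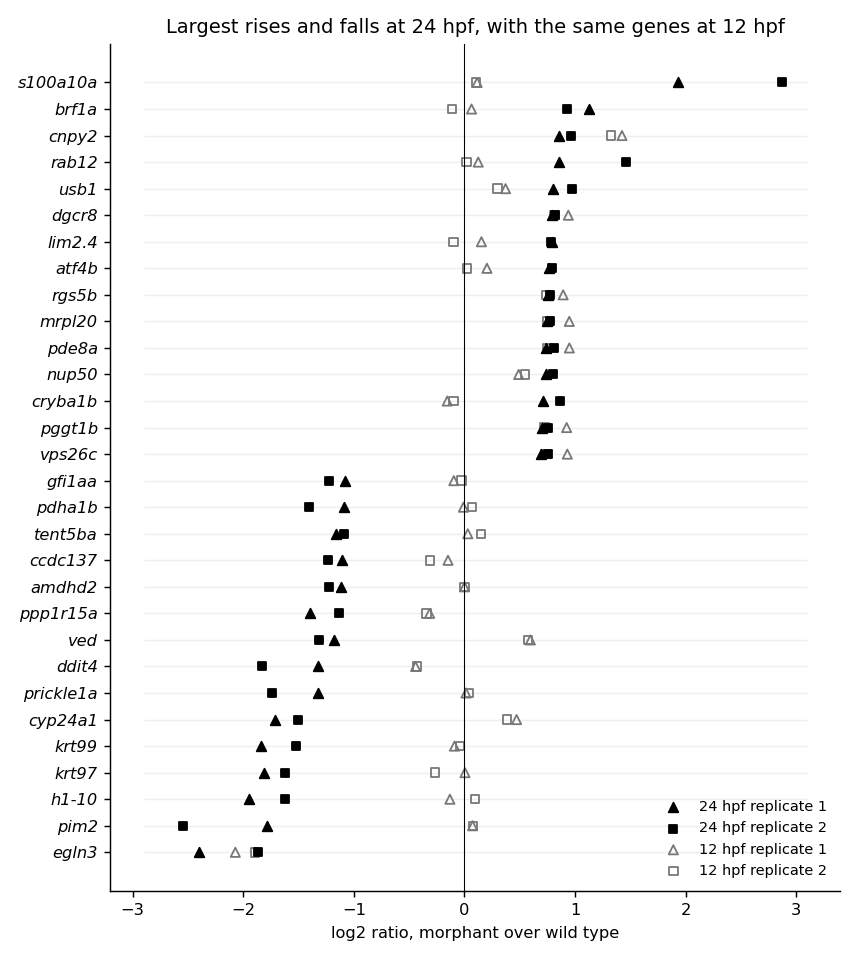
Log2 ratios (morphant over WT) of the 15 largest rises and 15 largest falls at 24 hpf on each array, with filled symbols at 24 hpf and open symbols for the same genes at 12 hpf, triangles for replicate 1 and squares for replicate 2. The falls lie apart from their 12 hpf values except that of egln3, while 7 of the 15 rises did not pass the test of a difference from 12 hpf.

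Among genes of oxygen sensing and of glucose use falls outnumbered rises. Of 31 measured genes of the hypoxia list 13 fell and 3 rose (41.9% and 9.68%, against 14.5% and 12.5% of all genes), with a median log2 ratio of −0.18. Beside egln3, the collagen prolyl hydroxylase genes p4ha1b and p4ha2 had log2 ratios of −1.39 and −0.83 and of −1.22 and −0.80. Of 37 genes of glycolysis and gluconeogenesis 14 fell and 6 rose (37.8% and 16.2%), and the falls numbered 7 without 24 hpf replicate 1 and 9 without replicate 2. The glucose-6-phosphate isomerase gene gpia had ratios of −0.99 and −0.81, and the lactate dehydrogenase gene ldha of −0.89 and −0.53. Replicate 1 was the lower array for all of these.

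The ratios of several of these genes were close at both ages. At 24 hpf p4ha1b was at −1.11, against −1.11 at 12 hpf, ldha at −0.71, against −0.71, and the lysyl hydroxylase gene plod1a at −0.74, against −0.65. Their differences of 0.00, 0.00 and −0.10 did not pass (adjusted p = 0.992, 0.997 and 0.642). In contrast gpia was at 0.11 at 12 hpf, and its difference of −1.01 passed (adjusted p = 0.0012). For p4ha1b, ldha and plod1a an equal response at both ages and an equal effect of the dye cannot be told apart.

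The integrated stress response list, the genes around eIF2α phosphorylation and Atf4, moved in both directions. Of 27 measured members 9 rose and 5 fell (33.3% and 18.5%), with a median of 0.11, and the rises numbered 4 without 24 hpf replicate 2. Rises included atf4b and aldh18a1, which makes the proline precursor (0.60 ± 0.10), and falls ppp1r15a and ddit4. Of the other aldh18a1 probes 1 passed (0.23 and 0.46) and 1 did not (0.18 and 0.09). The alanyl-tRNA synthetase gene aars1 was lower at both ages, with −0.79 ± 0.04 at 24 hpf and −0.71 at 12 hpf. Of 23 endoplasmic reticulum chaperone genes 3 rose and 2 fell (13% and 8.7%), and of 25 heat shock genes 5 rose and 5 fell (20% each way). Of all genes 12.5% rose and 14.5% fell. Within the heat shock list the small chaperone gene hspb1 fell (−0.39 ± 0.03), although with median centring its ratio was 0.16, against 0.25 for the median of all genes.

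Among growth-factor and early-response genes falls outnumbered rises. Of 46 immediate-early genes 18 fell and 4 rose (39.1% and 8.7%), with a median of −0.12. The falls numbered 9 without 24 hpf replicate 1 and 8 without replicate 2. The 18 included klf11a (−0.88 ± 0.18) and the hindbrain zinc finger gene egr2b (−0.67 ± 0.04). Of 29 genes of the insulin-like growth factor, FoxO and mTOR list 6 fell and 2 rose (20.7% and 6.9%, against 14.5% and 12.5% of all genes). With either 24 hpf array left out fewer of them fell. The insulin receptor substrate gene irs2a had −1.18 and −1.05 on its brightest probe and −0.25 and −0.32 on the other. The sestrin gene sesn3 (−0.62 ± 0.10) and the translation repressor gene eif4ebp3l (−0.62 ± 0.07) were lower, and with median centring the ratio of eif4ebp3l was 0.17, against 0.25 for the median of all genes.

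Genes of apoptosis moved in both directions. Of the Bcl-2 family 17 genes were measured, with a median of 0.04. Of these 6 rose and 4 fell (35.3% and 23.5%, against 12.5% and 14.5% of all genes). The rises numbered 2 without 24 hpf replicate 1 and 4 without replicate 2. The anti-apoptotic gene mcl1b was at 11.28 and 11.39 in morphants, against 12.28 and 12.54 in WT, a log2 ratio of −1.07 ± 0.11 (limma adjusted p = 5.50e-05). Its ratio at 12 hpf was 0.15. The mitophagy receptor gene bnip3lb had ratios of −0.81 and −0.61, while bcl2l13 had 0.62 and 0.61 on its brightest probe and the pro-apoptotic bokb had 0.45 and 0.44. The other bcl2l13 probe gave 0.16 and 0.19 and did not pass (adjusted p = 0.0756).

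Of 22 caspase and execution genes 5 fell and 2 rose (22.7% and 9.09%, against 14.5% and 12.5% of all genes). Fewer of these genes fell with either 24 hpf array left out. The gene diabloa, whose product relieves caspases of their inhibitors, had log2 ratios of −0.66 and −0.63 at 24 hpf and 0.48 and 0.33 at 12 hpf, and the difference of −1.05 passed (adjusted p = 7.73e-04). The initiator caspase gene casp9 was at −0.32 ± 0.18 and the cytochrome c gene cycsb at 0.62 ± 0.16. Without 24 hpf replicate 1 casp9 did not pass (−0.19, adjusted p = 0.242). The Mdm family gene mdm4 had ratios of −0.79 and −0.59. Of 47 cell cycle genes 3 rose and 6 fell, shares of 6.38% and 12.8%, against 12.5% and 14.5% of all genes. Fewer of these genes passed with either 24 hpf array left out. The cell division gene cdca8 was lower on its brightest probe (mean −0.30), while its other probes passed in the other direction (means 0.61 and 0.30).

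Among genes of the tail bud, the presomitic mesoderm and the notochord falls outnumbered rises. Of 43 measured genes of somite segmentation 22 fell and 1 rose (51.2% and 2.33%, against 14.5% and 12.5% of all genes). Their median was −0.21. The falls numbered 16 without 24 hpf replicate 1 and 17 without replicate 2. The T-box gene tbx16, which directs mesodermal cells out of the tail bud, was at 10.11 and 10.16 in morphants, against 10.95 and 11.42 in WT and 13.08 and 13.17 in WT at 12 hpf. Its relative tbx16l had log2 ratios of −1.03 and −0.88, the retinoic acid-degrading cyp26a1 of −0.96 and −1.07 and the growth factor gene fgf17 of −0.93 and −0.98. The myogenic factor gene myf5 was at 10.83 and 11.08 in morphants, against 11.74 and 12.10 in WT and 13.44 and 13.50 in WT at 12 hpf, and the somite homeobox gene meox1 had a ratio of −0.61 ± 0.01. For these genes the ratio at 12 hpf lay between −0.22 and 0.32, and each difference between the ages passed.

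Of 28 notochord and midline genes 16 fell and 2 rose (57.1% and 7.14%), with a median of −0.25. These falls numbered 7 without 24 hpf replicate 1 and 10 without replicate 2. The homeobox gene noto, needed for notochord fate, was at 10.00 and 10.14 in morphants, against 10.69 and 10.67 in WT and 13.28 and 13.18 in WT at 12 hpf. The midline guidance gene ntn1a had a ratio of −0.61 ± 0.10 on its brightest probe, and its other probes gave means of −0.13 and −0.14 and did not pass (adjusted p = 0.191 and 0.237). The ratio was −0.52 ± 0.01 for the floor plate and endoderm gene foxa2. The proteoglycan gene epyc rose, with 0.59 and 0.63. Of 40 genes of dorsoventral patterning and Bmp signalling 9 fell and 1 rose, the Bmp target gene id4 (0.47 ± 0.04). The shares were 22.5% and 2.5%, against 14.5% and 12.5% of all genes. Fewer of these genes fell with either 24 hpf array left out.

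Of 25 mesendodermal and Nodal pathway genes 11 fell and 0 rose (44% and 0%), with 0 higher at an unadjusted p under 0.05 in limma and 1 past the test without 24 hpf replicate 1. The left-right and Nodal inhibitor gene lft1 had ratios of −0.61 and −0.66. The homeobox gene mixl1 was lower at both ages, with −1.32 and −0.81 at 24 hpf and −2.02 and −2.30 at 12 hpf, and its level was 6.96 and 7.41 in morphants, against 8.28 and 8.21 in WT. Its 24 hpf ratio was nearer to 0 (difference 1.09, adjusted p = 0.00618). Of 36 endoderm, gut and pancreas genes 12 fell and 3 rose (33.3% and 8.33%, against 14.5% and 12.5% of all genes), with gata5 at −0.61 ± 0.15. The falls of this list numbered 7 without 24 hpf replicate 1 and 7 without replicate 2.

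In the hatching gland and the skin falls also outnumbered rises. Of 14 hatching gland genes 7 fell and 3 rose, with a median of −0.25. Both shares (50% and 21.4%) lay above those of all genes (14.5% and 12.5%). With either 24 hpf array left out fewer hatching gland genes rose and fewer fell. With plain subtraction and a prior variance that follows brightness 1 rose and 7 fell. The hatching enzyme gene he1.2 was at 12.86 and 13.03 in morphants, against 13.49 and 13.66 in WT, and he1.1 at 14.93 and 14.99 in morphants, against 15.35 and 15.43 in WT. Their ratios at 12 hpf, when WT levels were 9.16 and 9.10 and 10.85 and 10.86, were 0.06 and 0.33. With median centring he1.1 was at 0.27, against 0.25 for the median of all genes. Of 18 keratin genes 7 fell and 1 rose (38.9% and 5.56%), the rise being krt94 (0.52 ± 0.05). The median of the keratins was −0.22, and with median centring it lay 0.09 above that of all genes. The keratins that fell numbered 4 without 24 hpf replicate 2. Of 22 epidermal and ionocyte genes 6 fell and 2 rose (27.3% and 9.09%, against 14.5% and 12.5% of all genes). Fewer of these genes fell with either 24 hpf array left out. The gene ppl, which in mammals encodes a cornified envelope protein, was at −0.47 at 24 hpf and −0.47 at 12 hpf.

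In the eye falls outnumbered rises among field genes, and rises outnumbered falls among lens genes. Of 33 eye field and retina genes 13 fell and 1 rose (39.4% and 3.03%), with a median of −0.15, and without 24 hpf replicate 1 or 2 the falls numbered 6 and 7. The homeobox gene rx3, needed to form the optic vesicle, was at 9.77 and 9.71 in morphants, against 10.65 and 10.63 in WT and 14.08 and 14.07 in WT at 12 hpf. The sine oculis-type homeobox genes six7, six3b and six3a had mean ratios of −0.73, −0.61 and −0.46. Of 25 crystallin and lens genes 13 rose and 1 fell (52% and 4%), with a median of 0.24. Of all genes 12.5% rose and 14.5% fell. For the lens list fewer genes rose under other settings. The rises numbered 7 without 24 hpf replicate 1 and 5 with processed signals and a prior variance that follows brightness. The crystallin gene cryba1b was at 12.23 and 12.20 in morphants, against 11.52 and 11.34 in WT and 6.40 and 6.26 in WT at 12 hpf. The other named crystallin genes crygn2 and cryba2a had 0.53 and 0.47 and 0.37 and 0.38.

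Of 71 neural genes 17 fell and 7 rose (23.9% and 9.86%), with 10 falls and 0 rises without 24 hpf replicate 2. The midbrain-hindbrain boundary gene her5 was at −0.67 ± 0.02 and the hindbrain gene mafba at −0.74 ± 0.16. Of 31 neural crest and pigment genes 9 rose and 8 fell (6 and 5 without 24 hpf replicate 1). The melanosome transporter gene slc24a5 had ratios of 0.65 and 0.68, and the melanocyte master regulator gene mitfa was at 10.15 and 10.14 in morphants, against 9.67 and 9.67 in WT and 6.09 and 6.01 in WT at 12 hpf. Of the other mitfa probes 1 passed (0.33 and 0.38) and 1 did not (0.15 and 0.12). The cartilage and crest gene sox9a fell (−0.53 ± 0.02). In the crest and pigment list 29% rose and 25.8% fell, against 12.5% and 14.5% of all genes. Of 46 Hox genes 6 rose and 10 fell (13% and 21.7%, against 12.5% and 14.5% of all genes). Among them were hoxc4a at 0.46 ± 0.11 and hoxd12a at −0.63 ± 0.21. Another probe of each of these 2 genes gave means of 0.15 and −0.19 and did not pass, while a further hoxc4a probe passed (0.39). The Hox counts were 1 rise and 5 falls without 24 hpf replicate 1, and 1 rise and 2 falls without replicate 2.

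Among genes of differentiated muscle and red blood cells rises outnumbered falls. Of 59 sarcomere and calcium-handling genes 24 rose and 1 fell (40.7% and 1.69%), with a median of 0.18. Without 24 hpf replicate 1 or 2 the rises numbered 10 and 10, and with processed signals and a prior variance that follows brightness 12. The creatine kinase gene ckmb was at 14.96 and 14.96 in morphants, against 14.43 and 14.49 in WT and 6.25 and 6.12 in WT at 12 hpf. The fast myosin light chain genes mylz3 and mylpfa had log2 ratios of 0.53 and 0.42 and of 0.41 and 0.43. In contrast, of 28 myogenic regulator genes 9 fell and 2 rose (32.1% and 7.14%), led by myf5. Of 25 early heart genes 3 rose and 5 fell (12% and 20%). Of all genes 12.5% rose and 14.5% fell, so the share of heart genes that rose was near that of all genes. With processed signals and a prior variance that follows brightness 0 of the early heart genes rose. The muscle membrane gene popdc2 was at 0.41 ± 0.05 and tbx20 at −0.43 ± 0.06. Morphant tbx20 was not well above background on either array.

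Of 20 globin and heme synthesis genes 7 rose and 0 fell (35% and 0%), with 1 lower at an unadjusted p under 0.05 in limma. The embryonic globin gene hbbe3 was at 16.97 and 17.03 in morphants, against 16.37 and 16.48 in WT and 6.65 and 6.74 in WT at 12 hpf, and hbae3 at 16.18 and 16.09 in morphants, against 15.69 and 15.49 in WT. Of 37 regulators of blood and vessels 7 rose and 9 fell, with 5 rises and 3 falls without 24 hpf replicate 1. The erythroid transcription factor gene klf1 (0.46 ± 0.07) and the red cell anion exchanger gene slc4a1a (0.49 ± 0.09) rose, while gata2a, a gene of blood progenitors and vessels, fell (−0.55 ± 0.02). The other klf1 probe gave 0.0013 and 0.39 and did not pass. Of 23 macrophage and neutrophil genes 2 rose and 5 fell, and the falls numbered 0 without 24 hpf replicate 1 and 1 without replicate 2. The markers lcp1 and spi1b were at −0.0011 and −0.24, and spi1b passed. The shares that rose and fell were 18.9% and 24.3% for regulators of blood and vessels. They were 8.7% and 21.7% for macrophage and neutrophil genes, against 12.5% and 14.5% of all genes.

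Some of these calls were lost with other signals, also where the prior variance followed brightness. Under that prior variance cryba2a, hbbe3, klf1 and popdc2 did not pass with processed signals. With plain subtraction cryba2a, klf1, ckmb, mitfa and apoea, the last of the plasma carriers, did not. On the reported ratios that prior variance alone lost 0 of the 186 genes kept from the naming rule.

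**Figure D3:**
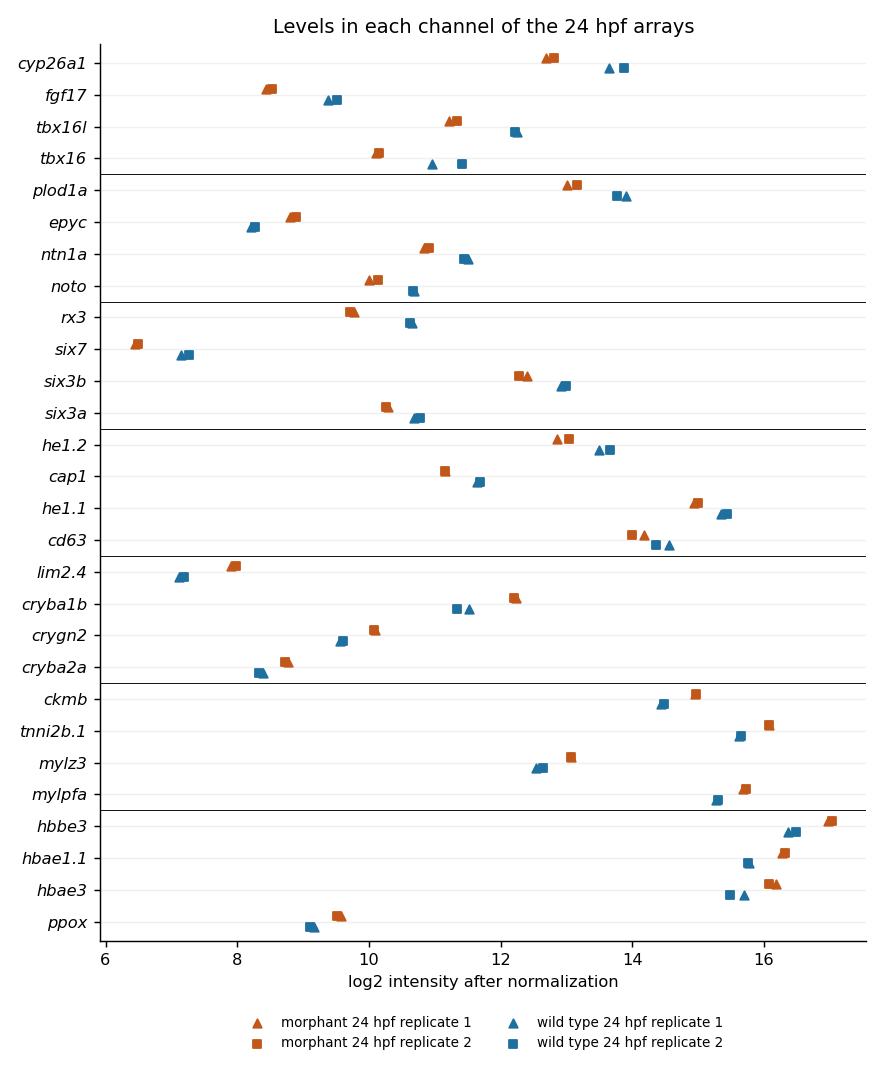
Log2 intensity in the morphant channel (orange, upper of each pair of rows) and the WT channel (blue) of the 24 hpf arrays, triangles for replicate 1 and squares for replicate 2, for the genes named from 7 lists, which are divided by lines from top to bottom into somite, notochord, eye field, hatching gland, lens, muscle and globin genes. All morphant values of the somite, eye field and hatching gland genes lie below the WT values and all of the lens, muscle and globin genes above them. In the notochord group epyc alone is higher in morphants. On median-centred ratios without loess, however, he1.1 and cd63 turn positive (0.27 and 0.24). The genes shown were chosen among called genes for large ratios of 1 sign on both arrays. Separation of the channels within an array therefore follows from that choice and is no result about the lists.

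**Figure D4:**
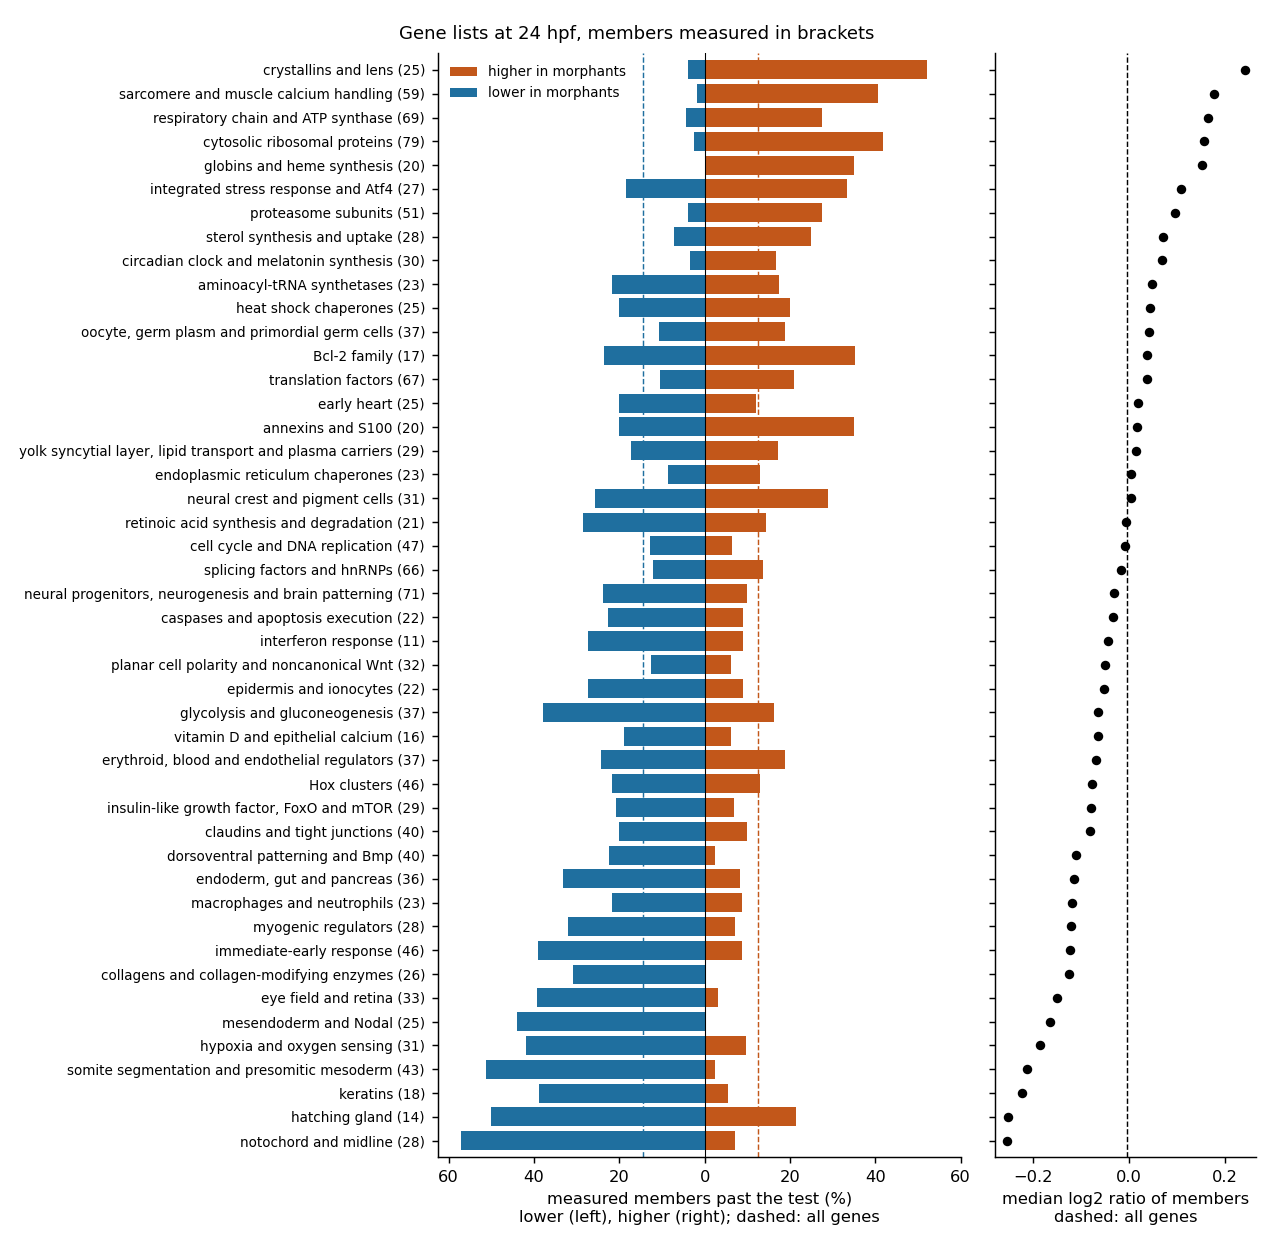
Left, the share (%) of the measured members of each list shown, all of at least 10 genes, that passed the test, higher in morphants (orange, to the right) or lower (blue, to the left), with the shares of all genes as dashed lines. Right, the median log2 ratio of the members, from 0.24 for crystallins and lens to −0.25 for notochord and midline.

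Among genes of the ribosome, the respiratory chain and the proteasome rises outnumbered falls, and most were small. Of 79 cytosolic ribosomal protein genes 33 rose and 2 fell (41.8% and 2.53%, against 12.5% and 14.5% of all genes). Their median was 0.16 and, at 12 hpf, 0.20. The ribosomal rises numbered 8 without 24 hpf replicate 1, and with processed signals and a prior variance that follows brightness 19 rose and 8 fell. The gene rpl22 had log2 ratios of 0.65 and 0.50 at 24 hpf and 0.56 and 0.42 at 12 hpf, while rps3 had 0.54 and 0.51 and 0.00 and 0.12. Of 69 respiratory chain genes 19 rose and 3 fell (27.5% and 4.35%), with a median of 0.16 at 24 hpf and −0.03 at 12 hpf. The rises numbered 5 without 24 hpf replicate 1 and 7 without replicate 2. The complex I genes ndufa2 and ndufa1 went opposite ways, at 0.55 ± 0.13 and −0.63 ± 0.07. Of 51 proteasome genes 14 rose and 2 fell (27.5% and 3.92%), with the named members between 0.31 and 0.33. The proteasome list had 0 rises and 1 fall without 24 hpf replicate 1, and without replicate 2 it had 2 rises and 0 falls.

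In the brightest of 10 equal bins of tested probes lay 74 of the 79 ribosomal, 54 of the 69 respiratory and 33 of the 51 proteasome genes (93.7%, 78.3% and 64.7%), against 17.4% of all genes. Brightness moved with the share of calls, since 5.52% of probes passed in the dimmest of the 10 bins and 33.2% in the brightest. Other lists lay on either side of the 17.4%, such as keratins (55.6%) and sarcomere genes (49.2%) above it and somite (14%) and lens genes (0%) below it. The part of brightness in the counts of any list was not tested. On median-centred ratios the median of all genes was 0.25, and those of the ribosomal, respiratory and proteasome lists lay 0.72, 0.51 and 0.39 above it. With processed signals they lay 0.08, 0.14 and 0.08 above it.

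Of 29 genes of the yolk syncytial layer and plasma carriers 5 rose and 5 fell (17.2% each way, near the 12.5% and 14.5% of all genes). The fibrinogen gene fgb (0.77 ± 0.12) and the fatty-acid-binding gene fabp4a (0.60 ± 0.02) rose. Of the other fgb probes 1 passed (0.63 and 0.86) and 1 did not (0.17 and −0.02). The apolipoprotein gene apoea fell (−0.81 ± 0.10). Of 28 sterol genes 7 rose and 2 fell (25% and 7.14%, against 12.5% and 14.5% of all genes). Fewer of them rose with either 24 hpf array left out. The synthesis gene mvda was at 0.54 ± 0.04 and aacs, which supplies acetoacetyl-CoA, at 0.63 ± 0.06, while insig1, which retains the sterol sensor in the endoplasmic reticulum, was at −0.83 ± 0.13 at 24 hpf and −0.72 at 12 hpf. Of 26 collagen and collagen-modifying genes 0 rose and 8 fell (0% and 30.8%, against 12.5% and 14.5% of all genes). With all 4 arrays 1 gene was higher at an unadjusted p under 0.05 in limma, and with either 24 hpf array left out fewer genes fell. These counts use the brightest probe, and for 1 gene that fell another probe passed in the other direction (0.37 and 0.44). Of the 20 annexin and S100 genes 7 rose and 4 fell (35% and 20%), with anxa4 at −0.79 ± 0.09 beside s100a10a. With either 24 hpf array left out fewer of them rose and fewer fell.

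The difference between the ages was tested in the same limma fit. It leaves out any effect of the dye on a probe that is equal at both ages, and the 2 ages share no sample. For a probe with little signal at 12 hpf the offset of 50 shrinks the 12 hpf ratio. A dye effect at 24 hpf then does not cancel, and the difference rests mainly on the 24 hpf ratio. Probes were filtered on the 24 hpf arrays alone, so such probes were included. Of 9956 genes 1092 (11%) had a 24 hpf ratio that differed from the 12 hpf ratio, 400 higher (4.02%) and 692 lower (6.95%). At 12 hpf itself 2327 genes (23.4%) had passed. Of the 2692 genes past the test at 24 hpf 662 also passed for the difference, among them 213 that were higher in morphants and 407 that were lower in morphants with a difference of the same direction. The largest such falls in the difference were those of pim2 (−2.24), cyp24a1 (−2.04) and ved (−1.83) among the named genes, and s100a10a (2.29) led the rises.

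For several lists the 12 hpf median lay nearer to 0 than that at 24 hpf. At 12 hpf it was 0.03 for somite segmentation, −0.05 for notochord, 0.04 for hatching gland, 0.03 for keratins, 0.01 for the eye field, −0.07 for lens and 0.04 for sarcomere genes, and −0.05 for globin and heme genes. Probes were filtered on the 24 hpf arrays alone, so genes with little signal at 12 hpf also entered. With little signal the offset of 50 draws a ratio towards 0. A 12 hpf median near 0 therefore does not show that an effect was absent. The 12 hpf WT levels given above for cryba1b, ckmb and hbbe3 were far below their 24 hpf levels. Of the 43 somite genes 20 had a ratio lower at 24 than at 12 hpf past the test and 1 a higher one. Of the 40 genes of dorsoventral patterning and Bmp signalling 14 were lower and 0 higher (1 higher at an unadjusted p under 0.05). The median of the Bmp list was 0.13 at 12 hpf and −0.11 at 24 hpf, so that it did not lie nearer to 0 at 12 hpf. Without 12 hpf replicate 1 the probes that passed for the difference numbered 1246, against 2356 with all 4 arrays, and without 24 hpf replicate 1 or 2 they numbered 1102 and 1272. The count of falls in that difference lay between 17 and 19 for the somite list and between 7 and 10 for the Bmp list with 1 array left out. The hypoxia list was at −0.18 at 24 hpf and −0.14 at 12 hpf, and the ribosomal list at 0.16 and 0.20. No difference between lists was tested.

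**Figure D5:**
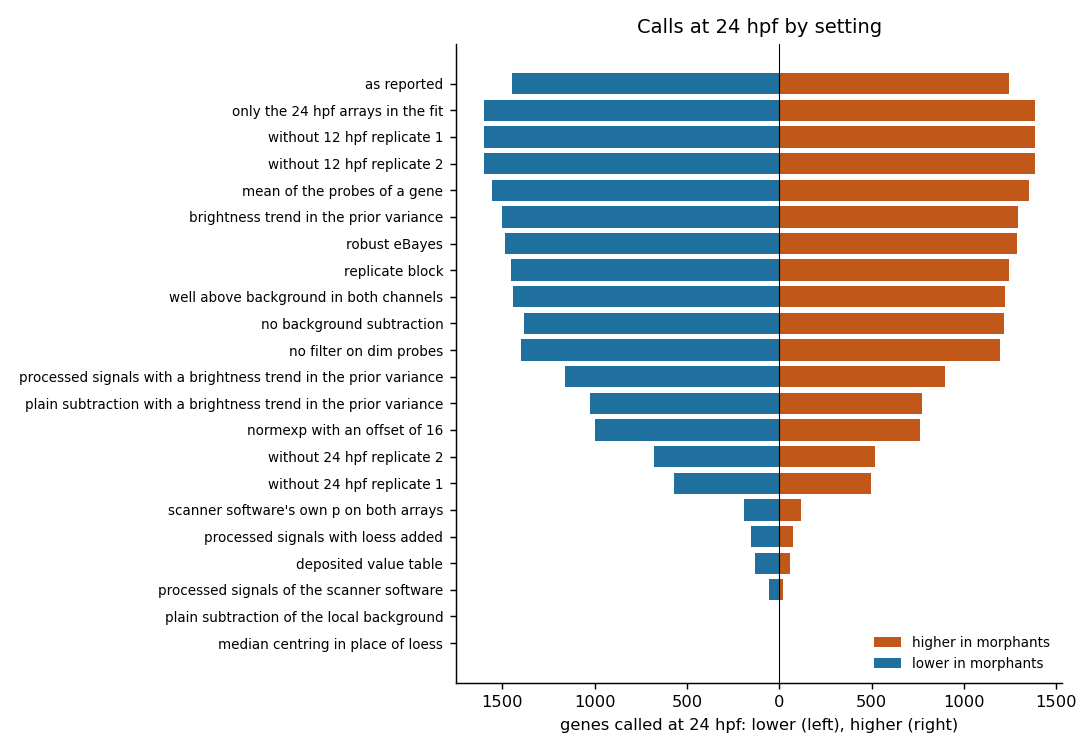
Number of genes past the test at 24 hpf, higher in morphants (orange, to the right) or lower (blue, to the left), as reported (top) and under each other setting. The count is 2692 as reported, 2060 with processed signals and a prior variance that follows brightness, 76 with processed signals and 1 prior variance, and 0 with plain subtraction or with median centring.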

How the data were processed

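Total RNA of pools of 200 embryos was labelled from 1 µg and hybridized to 2-colour Agilent arrays, per the labels' protocols. Per the file headers, the authors' scanner files hold median spot signals, local backgrounds and processed signals, all intensity values, and a p-value for each log ratio, made with Agilent Feature Extraction 10.5.1.1. The authors' deposited value table holds log10 ratios of Cy5 over Cy3, equal to the scanner software's at each spot (largest difference 0). Its share of noncontrol values at 0 was 19.3% and 18.6% on the 24 hpf arrays.

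From the median signals, background was corrected with normexp (offset 50) and log2 ratios (Cy5 morphant over Cy3 WT) were loess-normalized per array. Controls and outlier spots (10 to 18 per array) had weight 0. Of 45220 spots 1417 were controls, and 0 were saturated. Symbols came from RefSeq accessions, matched for 16770 of 19210 probes, and 26833 probes had none. In limma 3.58.1 (R 4.3.3) a mean per age was fitted over all 4 arrays (2 residual and 7.36 prior degrees of freedom). Each mean was tested against 0 and the 24 hpf minus the 12 hpf mean, two-sided, with Benjamini-Hochberg adjustment over 27142 probes. Levels are channel intensities after Aquantile normalization between arrays, and the number of arrays limits precision. The procedure was also run on simulated data with independent errors, few changed probes and no dye effect of single probes.

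Named genes come from a rule: per direction the 15 with the largest smaller-of-2-arrays ratio among called genes of 1 sign without a clone or locus name, up to 4 called members of each list by that measure, and badb. The 49 lists held 2171 genes, 1488 of them measured. Some lists share members, so their counts are not independent of each other. The members and lists were chosen with earlier results of these data known. No set test was run. Alternatives changed the background, normalization, signals, filter, arrays, block, variance model and probe choice. Genomic positions, sequences and a few genes and lists are not reported here.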

Additional observations from a re-analysis of the deposited data

Results flagged for a closer look

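Of the 104 genes named, 75 had a 24 hpf ratio that differed from their 12 hpf ratio by the limma test of the difference (adjusted p between 5.63e-05 and 0.0493), 50 lower and 25 higher at 24 hpf. The genes were named for their 24 hpf ratios, which enter this test, so the share is no result about them, and 11% of all genes passed it. Values are the 24 hpf minus the 12 hpf mean log2 ratio of the gene's brightest probe, with 2 arrays per age. A dimmer probe did not pass this limma test for prickle1a (−0.21, adjusted p = 0.275), irs2a (−0.21, adjusted p = 0.171) or anxa4 (−0.30, adjusted p = 0.101). The same held for a dimmer probe of p4ha2, fgb, klf1, ntn1a, hoxc4a, hoxd12a, mitfa, ckmb and slc4a1a.

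Among the largest falls the differences were −2.24 for pim2, −2.04 for cyp24a1, −1.83 for ved, −1.77 for h1-10, −1.62 for krt99, −1.59 for krt97 and −1.56 for prickle1a. They were −1.27 for pdha1b, −1.21 for tent5ba, −1.17 for amdhd2, −1.14 for ddit4, −1.09 for gfi1aa, −0.94 for ccdc137 and −0.94 for ppp1r15a. In the mesoderm and midline they were −1.37 for tbx16, −1.28 for cyp26a1, −0.99 for fgf17, −0.90 for myf5, −0.74 for tbx16l, −0.60 for meox1, −0.49 for noto, −0.39 for ntn1a and −0.35 for foxa2. The value of lft1 was −0.66. In the eye and brain the differences were −0.52 for rx3, −0.53 for six3b, −0.48 for six3a, −0.45 for six7, −0.73 for her5 and −0.73 for egr2b. In the crest, heart, Hox and blood lists they were −0.37 for sox9a, −0.44 for tbx20, −0.54 for hoxd12a and −0.78 for gata2a. The hatching enzyme genes he1.1 and he1.2 were at −0.76 and −0.69.

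Of the cell death and signalling genes the differences were −1.22 for mcl1b, −1.05 for diabloa, −0.65 for bnip3lb, −0.42 for casp9, −0.90 for mdm4, −1.09 for irs2a and −1.08 for klf11a. Of the remaining genes lower at 24 hpf they were −1.01 for gpia, −0.93 for anxa4, −0.65 for apoea, −0.58 for ndufa1, −0.50 for hspb1, −0.49 for p4ha2 and −0.46 for cnpy2, the last of which was higher in morphants at both ages.

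Differences above 0 were 2.29 for s100a10a, 1.09 for rab12, 1.05 for brf1a, 0.67 for atf4b and 0.55 for usb1. The value of 1.09 for mixl1 is that of a gene lower in morphants at both ages, less so at 24 hpf. In the lens they were 0.91 for cryba1b, 0.76 for lim2.4, 0.65 for crygn2 and 0.36 for cryba2a. In blood and muscle they were 0.80 for hbae3, 0.42 for hbbe3, 0.53 for klf1, 0.45 for slc4a1a, 0.46 for popdc2, 0.42 for ckmb and 0.40 for mylpfa. Pigment cell genes had 0.68 for slc24a5 and 0.41 for mitfa. The rest were 0.65 for ndufa2, 0.60 for epyc, 0.57 for fgb, 0.51 for aacs, 0.50 for hoxc4a and 0.46 for rps3.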

How the results depend on the processing

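Counts of probes and genes at 24 hpf, and of probes for the difference between the ages, were compared over 19 other settings of the fit, beside the scanner software's own p and the mean of a gene's probes. With the smaller offset of 16, 1842 probes were higher, and 1765 genes passed (765 higher), with 849 probes for the difference. Plain subtraction of the local background gave 0 for every count, and median centring 1 probe, which was lower, and 0 genes and 0 differences. The scanner software's processed signals gave 185 probes (58 higher, 127 lower), 76 genes (19 and 57) and 0 differences, the deposited ratios 486 probes (204 and 282), 189 genes (60 and 129) and 0 differences, and processed signals with loess added 588 probes (243 and 345), 226 genes (74 and 152) and 0 differences. For the difference, 5500 probes with plain subtraction, 805 with median centring and between 5919 and 6008 with these 3 had an unadjusted p under 0.05. With a prior variance that follows brightness, plain subtraction gave 3602 probes (1596 and 2006), 771 genes higher and 1034 differences, and processed signals 4293 probes and 1485 differences. This trend and the added loess were chosen after seeing the data. The scanner software's own p under 0.01 on both arrays held for 796 probes (347 and 449) and 311 genes (119 and 192). Leaving out 1 array gave between 2354 and 6797 probes (1137 to 3290 higher, 1198 to 3507 lower), between 1064 and 2987 genes (496 to 1385 higher, 568 to 1602 lower) and between 1102 and 2161 differences, the lowest without 24 hpf replicate 1, and the lone array of an age is then assumed to vary like the others. With a replicate block the counts were 6043 probes and 2701 genes, but replicate numbers only share a number here (r = −0.04 between the deviations of the 2 ages), and the block changed the call of 0 of 186 named genes.

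Of the 186 genes kept from the naming rule, 30 passed with processed signals, 53 with the deposited ratios, 166 with processed signals and 170 with plain subtraction once the prior variance followed brightness, 150 without 24 hpf replicate 1 and 152 without 24 hpf replicate 2. Median centring turned 16 positive, at 0.28 for xbp1, 0.16 for hspb1, 0.17 for eif4ebp3l, 0.0030 for xiap, 0.033 for cdc25b, 0.19 for cdca8, 0.16 for cdca5, 0.27 for he1.1, 0.24 for cd63, 0.066 for krt18a.1, 0.068 for anxa1a, 0.057 for ctss2.1, 0.20 for hnrnpul1, 0.052 for yars2, 0.34 for atp2b1a and 0.022 for atp2b4. It also put the median of all genes at 0.25, and relative to that 182 of the 186 kept their sign. Of the 75 differences between the ages 57 passed with processed signals and 53 with plain subtraction once the prior variance followed brightness, and 0 without it.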

Other observations

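Of 66 measured splicing factor and hnRNP genes 9 rose and 8 fell in morphants (13.6% and 12.1%, against 12.5% and 14.5% of all genes). Of 67 translation factors and their modifiers 14 rose and 7 fell (20.9% and 10.4%). Of 37 oocyte and germ plasm genes 7 rose and 4 fell (18.9% and 10.8%). By the test of the difference 11 of these 37 genes were lower and 3 higher at 24 than at 12 hpf, against 6.95% and 4.02% of all genes. The median of this list was 0.04 at 24 hpf and 0.22 at 12 hpf. Of 30 circadian and melatonin genes 5 rose and 1 fell (16.7% and 3.33%), and of 40 claudin and tight junction genes 4 rose and 8 fell (10% and 20%). Without 24 hpf replicate 1 the rises and falls numbered 6 and 2 for splicing, 5 and 2 for translation, 7 and 1 for germ cells, 3 and 0 for circadian genes and 1 and 2 for claudins. With 1 array left out the germ cell genes lower at 24 than at 12 hpf numbered between 6 and 12.

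In 3 genes, chosen after their values were seen, the 24 hpf arrays differed by more than 4-fold, with replicate 1 the higher array in each. The log2 ratio of sult2st3, a sulfotransferase gene, was 4.43 on replicate 1 and −0.14 on replicate 2. That of slc25a35, a mitochondrial carrier family gene, was 3.18 on replicate 1 and −0.10 on replicate 2, and neither gene passed the test (limma adjusted p = 0.0701 and 0.0693). That of cldnd1a was 2.34 on replicate 1 and 0.22 on replicate 2, and it passed (adjusted p = 0.0310). At 12 hpf the ratios of the 3 genes lay between −0.17 and 0.25.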
